A study of Homo sapiens with 12 samples.

Results

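The expression of 9 target genes of the transcription factor p53 was examined in RNA sequencing libraries of proliferating and senescent human fibroblasts. The genes were MDM2, PPM1D, ZMAT3, SESN1, TP53I3, FDXR, FAS, TNFRSF10B and GDF15, taken by symbol from the 57500 gene rows of the count table. Each symbol had 1 row, and all 9 genes were among the 16251 genes with enough counts to be tested. The cells were MRC5, an established line of embryonic human lung fibroblasts with a limited lifespan. Proliferating cells (Prol) were compared with cells made senescent by 20 Gy of X-rays, Sen(IR). In the groups Sen(IR)+UK5099 and Sen(IR)+CTPI2, irradiated cells also received an inhibitor of a mitochondrial carrier. UK5099 blocks the mitochondrial pyruvate carrier, which brings pyruvate into the mitochondrion, and CTPI2 blocks SLC25A1, which exports citrate. Each group had 3 libraries, 12 in all. The methods state that irradiated cells were collected 10 to 12 days after exposure, that inhibitors were added 1 day after it, and that UK5099 was used at 100 μM and CTPI2 at 15 or 30 μM. The sources used here do not say which CTPI2 dose was sequenced. All 4 groups came from the same line, cultured in atmospheric oxygen, and the study describes its sequencing replicates as independent. The labels do not tie the 3 libraries of a group to separate cultures, and p-values measure the spread between these libraries.

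p53 is held at a low level in unstressed cells and is stabilised after DNA damage, when it binds response elements near its target genes and raises their transcription. Its targets stop the cell cycle, repair DNA, adjust metabolism or prepare the cell for death, and some of them feed back on p53 itself. Persistent DNA damage and p53 activity are known features of the senescence that follows irradiation. Among the genes described here, MDM2 encodes the ubiquitin ligase that targets p53 for degradation and PPM1D the phosphatase WIP1 that switches off damage signalling. ZMAT3 encodes an RNA-binding protein, SESN1 a sestrin that restrains mTORC1, TP53I3 a quinone oxidoreductase-like enzyme, and FDXR the mitochondrial ferredoxin reductase. FAS and TNFRSF10B (also called DR5) are death receptors of the cell surface, and GDF15 is a secreted stress cytokine.

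The genes lie on 8 chromosomes (GRCh38, GENCODE v44). Those on the plus strand are MDM2 (ENSG00000135679) at chr12:68808177-68845544, PPM1D (ENSG00000170836) at chr17:60600193-60666280, FAS (ENSG00000026103) at chr10:88953813-89029605 and GDF15 (ENSG00000130513) at chr19:18374731-18389176. Those on the minus strand are ZMAT3 (ENSG00000172667) at chr3:178960121-179072215, SESN1 (ENSG00000080546) at chr6:108984309-109094846, TP53I3 (ENSG00000115129) at chr2:24077433-24085861, FDXR (ENSG00000161513) at chr17:74862497-74873031 and TNFRSF10B (ENSG00000120889) at chr8:23020133-23069031. Exon bases shared with other annotated genes made up 14.7% in MDM2, 7.52% in TNFRSF10B, 7.04% in FAS, 4.99% in SESN1, 3.46% in TP53I3 and none in the other 4 genes. Reads from such bases may belong to the neighbour. The named neighbour of MDM2, carboxypeptidase M, had a mean of at most 5.95 counts per 1000000 in any group, far below MDM2. ENSG00000257181 and ENSG00000256664 each share at least as many exon bases with MDM2, and their levels are not given here.

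Library totals ran from 20597736 to 28245693 counts, and values below are counts per 1000000 (CPM) after TMM scaling, a correction for differences in composition between libraries. The coefficient of variation between replicates, from the common dispersion, was 6.12%. All 9 fibroblast markers were detected in every group, while markers of blood, endothelial and epithelial cells summed to 1.12 to 1.5 CPM in Prol and to 4.07 to 7.06 CPM in the irradiated libraries, with 2 to 5 of 11 at 0 in a group. CD14, a monocyte marker among them, had a mean of 3.32 CPM in Sen(IR) and 0.19 CPM in Prol and was called higher. The fibroblast markers, 3 collagens and 6 others, had summed levels of 10890 to 11390 CPM in the UK5099 libraries. Their sums were 18150 to 19920 CPM in the CTPI2 libraries, 20550 to 21130 in untreated Sen(IR) and 21300 to 25340 in Prol. The 4 proliferation markers had sums of 15.2 to 16.9 CPM after UK5099, 59.2 to 69.2 CPM after CTPI2, 65.3 to 69 CPM in untreated Sen(IR) and 1208 to 1365 CPM in Prol, and all 4 were called lower with UK5099 than in Sen(IR). In bulk RNA, fewer cells that express a gene and less RNA per cell cannot be told apart.

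Sequences resembling the p53 response element were searched around the RefSeq transcription starts, because such an element is the DNA that p53 recognises at these genes. The search used the published consensus of 2 half-sites of 10 bases each with no spacer, on both strands. RefSeq promoter windows (GRCh38.p14) were given for 8 of the 9 genes, not for TNFRSF10B. Every match with at most 2 mismatches within 2500 bases of a start is given. SESN1 and FDXR had none, and their matches with 3 mismatches in the 300-base promoter windows are given instead. All are printed 5′ to 3′ on the element's strand, with the 4 core bases of each half-site in capitals:
ZMAT3: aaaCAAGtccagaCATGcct
MDM2, first element: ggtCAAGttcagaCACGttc
MDM2, second element: ggaCTTGcctagtCTTAtct
FAS: ggaCAAGccctgaCAAGcca
GDF15: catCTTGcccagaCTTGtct
TP53I3: ataCATCctcagaCATGttt
SESN1: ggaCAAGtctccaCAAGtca
FDXR: gggCAGGagcgggCTTGccc

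The ZMAT3 sequence, at chr3:179070188-179070207 on the minus strand, matched the consensus at every base and lies in an intron of the gene, with its centre at -856 bases from the nearest start. The MDM2 sequences, at chr12:68808923-68808942 and chr12:68811195-68811214 on the plus strand, each had 2 mismatches, and both lie in introns of MDM2. The first has its centre at -85 bases from an internal start, and the second at 2180 bases from a start. First and second number the printed matches only. The promoter windows held 1 more match with 3 mismatches in MDM2, at chr12:68808961-68808980, and 1 in GDF15, at chr19:18386186-18386205. Neither is printed. The FAS match, with 2 mismatches, is at chr10:88991309-88991328 on the plus strand, in a coding exon of a FAS transcript and in an untranslated or noncoding exon of the overlapping minus-strand gene ACTA2 (GENCODE v44). GDF15 had its closest match, also with 2 mismatches, in an intron at chr19:18385308-18385327, and TP53I3 at chr2:24086781-24086800 on the minus strand, in an intron of the neighbouring gene FAM228B. The SESN1 match, at chr6:109009018-109009037 on the minus strand, had 3 mismatches, with its first base at -49 bases from a start. The FDXR match, at chr17:74872996-74873015 on the minus strand, also had 3, with its first base at -21. Within 2500 bases of a start, 5 of 8 genes held a match with at most 2 mismatches, against 14% of all 27305 genes with a promoter window. In the 300-base promoter windows themselves, 2 of 8 genes did (MDM2 and FAS), against 0.82% of all genes, and 5 of 8 with at most 3 mismatches, against 6.39%. The best match over all starts of a gene was taken, and the shares were not equalised for the number of starts. MDM2 has 4 starts and FAS and SESN1 have 3 each, beside 35116 starts over the 27305 genes. The genes are known p53 targets, so these shares are a description and not a test. A match describes the letters only and was not measured as a bound site. In SESN1, FDXR and PPM1D the closest match within 2500 bases of a start had 3 mismatches. PPM1D had none with 3 in its promoter window, and its match outside that window is not printed.

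Per kilobase of transcript (RPKM, on the MANE Select transcript length), the genes differed widely in level. In Sen(IR), TNFRSF10B stood highest at 105 ± 0.538 RPKM (SD, n = 3). GDF15 was at 55.7 ± 3.77 RPKM, MDM2 at 46.8 ± 1.01, TP53I3 at 32.9 ± 2.01 and FAS at 30.5 ± 0.322. ZMAT3 followed at 28.5 ± 0.671 RPKM, FDXR at 13.4 ± 0.249, SESN1 at 5.91 ± 0.35 and PPM1D at 4.84 ± 0.132. In Prol the same scale ran from 43.5 ± 2.58 RPKM for TNFRSF10B down to 2.55 ± 0.263 for SESN1, so PPM1D ranked above SESN1 in Prol and below it in Sen(IR).

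**Figure D1:**
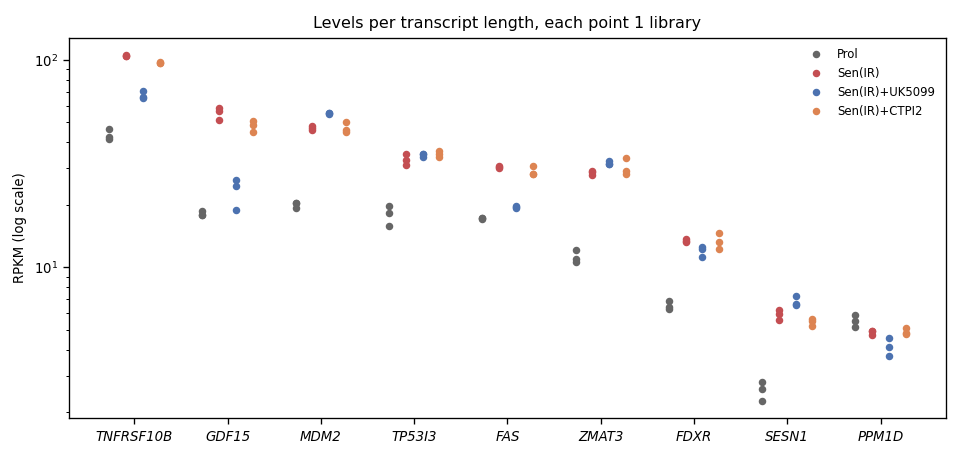
Level of each gene per kilobase of transcript (RPKM, log scale) in the 12 libraries, 1 point per library, coloured by group and ordered by the Sen(IR) mean. TNFRSF10B is the highest in every group, and PPM1D is the only gene whose grey Prol points lie above the 3 other groups.

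The comparison of Sen(IR) with Prol asks how the p53 targets differ in irradiated senescent cells. Of the 9 genes, 8 rose and PPM1D did not. A gene was called at a Benjamini-Hochberg adjusted p under 0.05 (edgeR's quasi-likelihood test, over all genes tested) with an absolute log2 fold change over 0.5. By this rule 24.8% of all genes tested were called higher and 22.4% lower. The median log2 fold change of the 9 genes was 1.21, beside 0.01 over all genes tested. In all 8 genes that rose, every Sen(IR) library lay above every Prol library, as in 35.3% of all genes.

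MDM2 stood at 145, 153 and 152.5 CPM in the Prol libraries and at 350.3, 343 and 358 CPM in Sen(IR), so the groups lay far apart. Its log2 fold change was 1.22 (SE 0.05, adjusted p = 1.27e-15), a fold of 2.33. PPM1D, the other feedback gene, measured 28, 26.3 and 24.7 CPM in Prol against 22.4, 23.4 and 23.5 CPM in Sen(IR). Its Sen(IR) libraries lay just below the lowest Prol library, and the difference of -0.19 (95% interval -0.35 to -0.02, adjusted p = 0.0403) was smaller than the limit of 0.5. Its adjusted p stayed under 0.05 in only 9 of 18 alternative fits or sample sets, and upper-quartile scaling gave -0.07. Both genes oppose p53 signalling, and of them only MDM2 was called.

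The genes of RNA control, metabolism and stress moved together. ZMAT3 rose from 98.4, 108 and 94.4 CPM in Prol to 248, 256.2 and 260 CPM in Sen(IR), a log2 fold change of 1.35 (SE 0.06, adjusted p = 1.46e-14). SESN1 rose from 12.9, 15.8 and 14.7 CPM to 35.3, 31.4 and 33.7 CPM, by 1.21 on the log2 scale (SE 0.08, adjusted p = 9.4e-12). FDXR, a mitochondrial enzyme that passes electrons to ferredoxin, rose with a log2 fold change of 1.04 (SE 0.08, adjusted p = 1.99e-10), from 11.6 to 12.7 CPM across the Prol libraries to 24.4 to 25.3 CPM. TP53I3 ran from 26 to 32.5 CPM in Prol and from 51.3 to 57.9 CPM in Sen(IR), a log2 fold change of 0.88 (SE 0.07, adjusted p = 3.41e-10). None of these 4 genes had overlapping libraries.

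Both death receptors and the secreted factor were also higher in Sen(IR). TNFRSF10B stood at 170, 186 and 166 CPM in Prol and at 419, 418 and 422.5 CPM in Sen(IR), a log2 fold change of 1.27 (SE 0.05, adjusted p = 8.07e-16). FAS rose less, from 63.4, 64 and 63.8 CPM to 111, 113 and 114 CPM, a log2 fold change of 0.82 (SE 0.05, adjusted p = 2.74e-12). GDF15 had the largest difference of the 9, from 21.5, 21.5 and 22.5 CPM in Prol to 70.6, 61.8 and 68 CPM in Sen(IR), a fold of 3.06 (log2 1.61, SE 0.09, adjusted p = 4.67e-13). The plot of CPM by library shows these separations gene by gene.

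**Figure D2:**
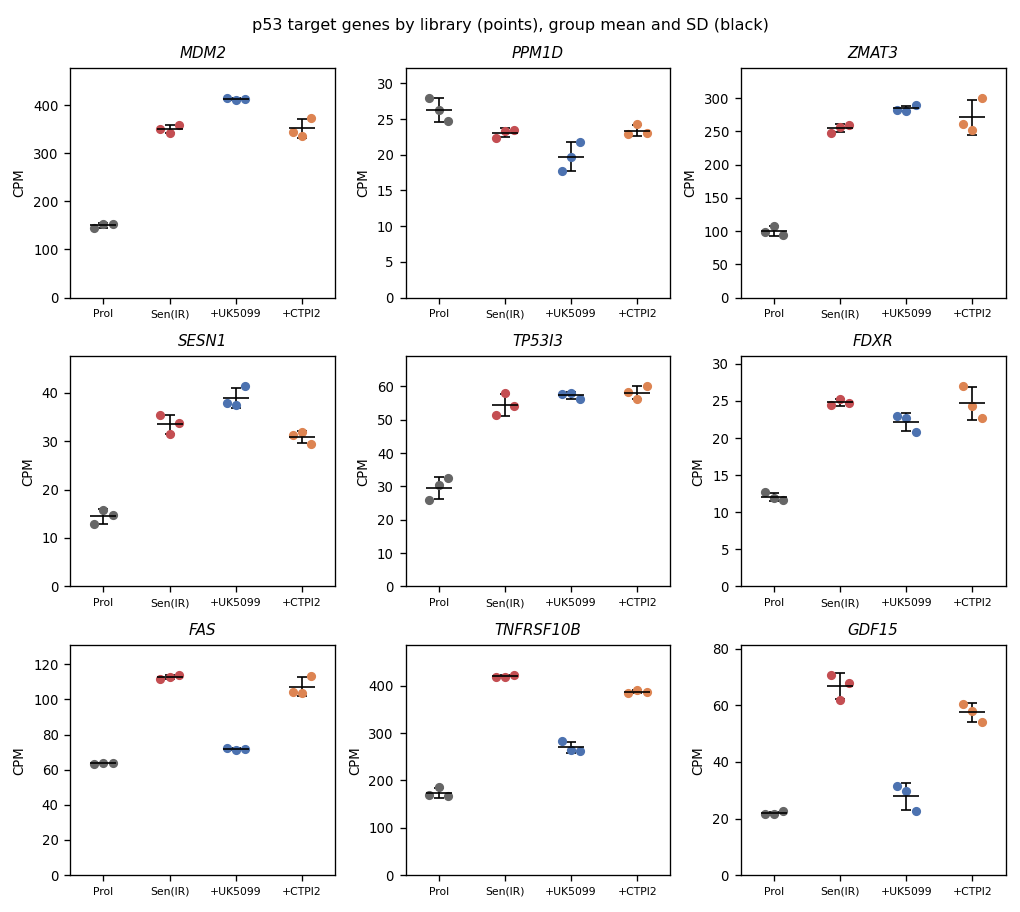
CPM of each gene in the 12 libraries, 1 panel per gene with its own axis from 0, with the mean and SD of each group of 3 in black (+UK5099 and +CTPI2 are irradiated cells with the inhibitor). FAS, TNFRSF10B and GDF15 in the bottom row are lower with UK5099 than in Sen(IR), while the blue MDM2 and ZMAT3 points lie above the red ones.

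The comparison of Sen(IR)+UK5099 with Sen(IR) asks what the pyruvate carrier inhibitor does to these genes in senescent cells. GDF15, FAS and TNFRSF10B, the genes of the 9 whose products are secreted or sit at the cell surface, were called lower than in untreated Sen(IR). No gene of the 9 was called higher. Over all genes tested, 12.1% were called lower and 8.76% higher. At the adjusted p alone, MDM2, SESN1 and ZMAT3 were also higher, with differences under the limit of 0.5, as 21.9% of all genes were higher by that rule. PPM1D was lower in the same way, and 23.5% of all genes were lower by it. The median over the 9 genes was -0.16, beside 0.01 over all genes tested. The grouping of the lower genes by where their products act was made after the values were seen, and other p53 targets, given below, did not all follow it.

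GDF15 measured 31.6, 29.6 and 22.6 CPM with UK5099 against 70.6, 61.8 and 68 CPM in Sen(IR), with no overlap. In this direction 28.6% of all genes had none. GDF15 fell by 1.26 on the log2 scale (SE 0.09, adjusted p = 9.92e-11), to a fold of 0.417. For GDF15 the UK5099 libraries spread more than those of the other groups, with a coefficient of variation of 17% beside 6.76% in Sen(IR). The lowest of them, 22.56 CPM, lay next to the highest Prol library at 22.53 CPM.

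FAS stood at 72.6, 71.2 and 71.9 CPM with UK5099 and at 111, 113 and 114 CPM in Sen(IR). It fell by 0.65 on the log2 scale (SE 0.05, adjusted p = 6.11e-10), to a fold of 0.638. The coefficient of variation was at most 1.06% in both groups, far under the gap between them. FAS shares 7.04% of its exon bases with ACTA2, STAMBPL1 and ENSG00000286116, and the sources used here do not say whether counting used the strand. ACTA2, smooth muscle actin, fell by 1.00 on the log2 scale with UK5099 (SE 0.07) and STAMBPL1, a deubiquitinase, fell by 1.20 (SE 0.06), while ACTA2 fell by 2.89 in Sen(IR) against Prol, where FAS rose. The part of these neighbours in the FAS counts was not tested.

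TNFRSF10B measured 282.5, 265 and 262 CPM with UK5099, all below the 418 to 422.5 CPM of Sen(IR). It fell by 0.64 on the log2 scale (SE 0.05, adjusted p = 4.99e-10), to a fold of 0.642. Its exons share 7.52% of their bases with the neighbour RHOBTB2, which differed by 0.13 (SE 0.1, adjusted p = 0.27). The fractions of the Sen(IR) level at which both death receptors stood were nearly equal.

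MDM2 moved the other way, to 416, 411.5 and 414 CPM with UK5099 against 350.3, 343 and 358 CPM. The difference of 0.24 (95% interval 0.14 to 0.34, adjusted p = 3.23e-04) was small, yet no library overlapped. SESN1 measured 37.8, 37.5 and 41.3 CPM against 35.3, 31.4 and 33.7 CPM, a difference of 0.22 (0.06 to 0.37, adjusted p = 0.0224). ZMAT3 stood at 283, 281 and 289 CPM against 248, 256.2 and 260 CPM, a difference of 0.16 (0.03 to 0.29, adjusted p = 0.0365). These 3 genes had no overlapping libraries, as 27.9% of all genes had none in this direction. PPM1D measured 17.8, 19.7 and 21.7 CPM, below the 22.4 to 23.5 CPM of Sen(IR), with a difference of -0.22 (-0.39 to -0.06, adjusted p = 0.0277). In 18 alternative fits or sample sets the adjusted p stayed under 0.05 in all 18 for MDM2, in 15 for SESN1, 13 for PPM1D and 12 for ZMAT3.

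The remaining genes did not pass the test. TP53I3 ran from 56.1 to 57.9 CPM with UK5099, inside the range of Sen(IR) up to its highest library, and the difference was 0.07 (-0.07 to 0.22, adjusted p = 0.408). FDXR ran from 20.8 to 23 CPM, below the Sen(IR) libraries, with a difference of -0.16 (-0.33 to 0.00065, adjusted p = 0.0982). Mitochondrial transcripts held 3.81 to 4.23% of the counts with UK5099 and 2.78 to 3.21% in Sen(IR), and the fibroblast and proliferation markers were at the lower sums given above. The part of these shifts in the differences of the 9 genes was not tested.

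**Figure D3:**
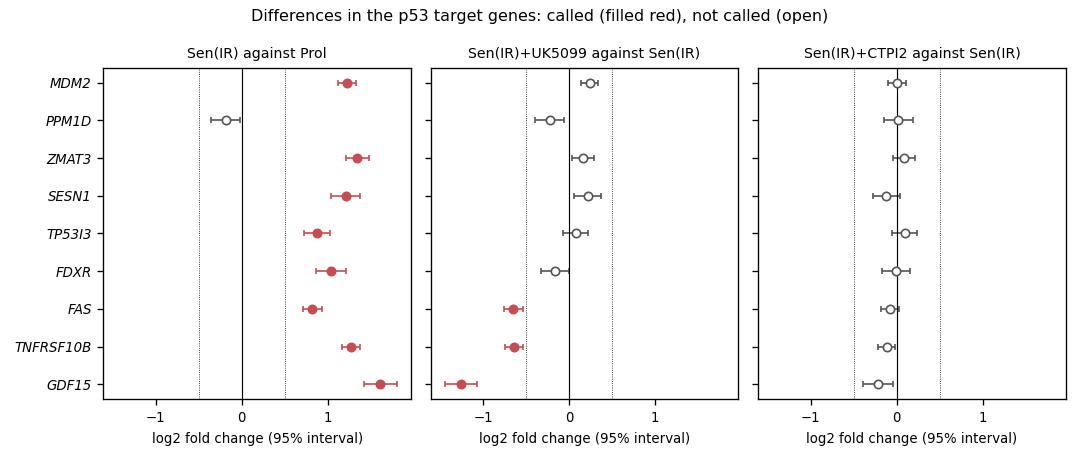
Log2 fold change of each gene (points) with its 95% interval (bars) in 3 comparisons, filled red where called and open where not, with dotted lines at the limit of 0.5 in either direction. In the left panel every gene but PPM1D is called higher, in the middle panel only FAS, TNFRSF10B and GDF15 are called, all lower, and in the right panel none is.

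With CTPI2, none of the 9 genes was called in either direction. In this comparison 0.0185% of all genes tested were called higher and 0.148% lower, so few genes of any kind were called. DESeq2 also called 0 of the 9. At an unadjusted p under 0.05, 2 of the 9 genes differed, GDF15 and TNFRSF10B, both lower. The share of all genes that differ by that rule was not counted, so this count has no background beside it. Both genes had no overlapping libraries, as 8.3% of all genes had none in this direction. The median over the 9 genes was -0.0079.

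GDF15 measured 60.6, 58.1 and 54 CPM with CTPI2, just under the lowest Sen(IR) library at 61.8 CPM, a difference of -0.22 (95% interval -0.39 to -0.04, adjusted p = 0.531). TNFRSF10B stood at 384, 391 and 387 CPM, below the 418 to 422.5 CPM of Sen(IR), a difference of -0.12 (-0.22 to -0.01, adjusted p = 0.593). These 2 differences have the sign seen with UK5099, and neither passed the adjustment. FAS measured 104, 104 and 113.5 CPM, a difference of -0.07 (-0.18 to 0.03, adjusted p = 0.844), with 1 library inside the Sen(IR) range.

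MDM2 with CTPI2 stood at 345, 337 and 374 CPM, on both sides of the Sen(IR) libraries, a difference of 0.01 (-0.09 to 0.11, adjusted p = 0.993). ZMAT3 differed by 0.09 (-0.04 to 0.22) and TP53I3 by 0.1 (-0.05 to 0.24). SESN1 differed by -0.12 (-0.28 to 0.04), PPM1D by 0.02 (-0.15 to 0.19) and FDXR by -0.01 (-0.17 to 0.15). Every one of these intervals lay inside the limit of 0.5 on both sides, which bounds the size of any difference at this depth without showing that the groups were alike.

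The inhibitors were also compared directly, at doses that differed, and the part of the dose was not tested. With UK5099, GDF15, FAS and TNFRSF10B were called lower than with CTPI2, and no gene was called higher, against 11.7% lower and 8.2% higher over all genes tested. GDF15 fell by 1.05 on the log2 scale (SE 0.09, adjusted p = 2.67e-09) and FAS fell by 0.58 (SE 0.05, adjusted p = 4.72e-09). TNFRSF10B fell by 0.52 (SE 0.05, adjusted p = 1.54e-08), a value near the limit: without the third UK5099 library it was -0.4995 and with upper-quartile scaling -0.4932, and the call was lost in both. MDM2 and SESN1 were higher with UK5099 by 0.23 (SE 0.05, adjusted p = 4.44e-04) and 0.34 (SE 0.07, adjusted p = 8.9e-04), and PPM1D was lower with a difference of -0.24 (SE 0.08, adjusted p = 0.0173), each under the limit. By the adjusted p alone 21.1% of all genes were higher, and the share that was lower is not given here. ZMAT3, TP53I3 and FDXR differed by 0.07 (95% interval -0.06 to 0.2), -0.02 (-0.16 to 0.12) and -0.15 (-0.32 to 0.01).

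Set against Prol, most of the genes also stood higher in the treated senescent cells. With UK5099, 6 of the 9 genes were called higher than in Prol and none lower, where 26.9% and 26.2% of all genes were. With CTPI2, 8 of 9 were called higher and none lower, where 24.8% and 21.9% were. These comparisons use the same Prol libraries as the first one, so their values are not independent of it. MDM2 and ZMAT3 stood higher against Prol with UK5099 (log2 1.46, SE 0.05, and 1.5, SE 0.06) than any other of the 9. GDF15 and FAS came close to Prol with UK5099: they differed from it by 0.35 (SE 0.09, adjusted p = 0.00204) and 0.17 (SE 0.05, adjusted p = 0.00461), under the limit, with no overlap in either, as 37.2% of all genes had none in this direction. TNFRSF10B remained called at 0.63 (SE 0.05, adjusted p = 1.27e-10), and PPM1D differed by -0.41 (SE 0.08, adjusted p = 7.48e-05).

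The order of the 4 groups differed between the genes. For GDF15, FAS and TNFRSF10B it was Prol, then UK5099, then CTPI2, then Sen(IR), and only the last neighbours, CTPI2 and Sen(IR), did not differ by the adjusted p. MDM2 ran from Prol to Sen(IR), CTPI2 and UK5099, with Sen(IR) and CTPI2 not told apart. SESN1 ran from Prol to CTPI2, Sen(IR) and UK5099, where CTPI2 and Sen(IR) were not told apart. ZMAT3 had the order of MDM2 and TP53I3 ran from Prol to Sen(IR), UK5099 and CTPI2. In both, irradiated groups next to each other in the order did not differ by the adjusted p. For ZMAT3, Sen(IR) and UK5099, which are not next to each other, did (adjusted p = 0.0365). FDXR ran from Prol to UK5099, CTPI2 and Sen(IR), with only Prol apart from its neighbour. PPM1D alone was highest in Prol, followed by CTPI2, Sen(IR) and UK5099, and only Sen(IR) and UK5099 differed as neighbours.

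The regulators of p53 were examined by their transcripts. MDM4, the relative of MDM2 that masks the activation domain of p53, was called lower in Sen(IR) than in Prol (log2 -0.72, SE 0.1, adjusted p = 1.8e-06) and did not pass the test with either inhibitor. Of 11 regulators of p53, 2 were called higher in Sen(IR) (HIPK2 and TP53BP1) and 3 lower (CDKN2A, MDM4 and USP7), shares near the 24.8% and 22.4% of all genes tested. USP7, a deubiquitinase of MDM2 and p53, fell by 0.65 (SE 0.05), and HIPK2, a kinase of p53, rose by 0.87 (SE 0.11). With UK5099 only HIPK2 was called, higher by 0.69 (SE 0.11, adjusted p = 3.06e-05), and with CTPI2 none of the 11 was.

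Another 36 known p53 targets were examined beside the 9, of which 35 were tested (GLS2 had at most 2 counts in any library). In Sen(IR) against Prol, 21 were called higher and 3 lower, with a median of 0.92, where 24.8% and 22.4% of all genes were called. CDKN1A, which encodes the cell cycle inhibitor p21, rose from a mean of 315 CPM to 1055 CPM (log2 1.75, SE 0.05, adjusted p = 1.03e-17). FUCA1, a lysosomal fucosidase, rose by 3.3 (SE 0.15), TNFRSF10C, a decoy receptor for TRAIL, by 3.29 (SE 0.19) and TP53INP1, a p53-induced nuclear protein, by 2.31 (SE 0.09). TNFRSF10C shares 33% of its exon bases with other annotated genes. AEN, an apoptosis-enhancing nuclease, fell by 0.8 (SE 0.07), APAF1, the scaffold of the apoptosome, by 0.77 (SE 0.08) and BAX, the mitochondrial pore former, by 0.54 (SE 0.06), a call that upper-quartile scaling ended (-0.42).

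With UK5099, 2 of the 35 were called higher and 6 lower, with a median of -0.16, beside 8.76% and 12.1% of all genes tested. DRAM1, a lysosomal protein of autophagy, fell by 1.27 (SE 0.05, adjusted p = 1.49e-15), from a mean of 372 CPM to 154 CPM, beside 143 CPM in Prol. PLK2 and PLK3, polo-like kinases of the stress response, fell by 1.01 (SE 0.05) and 0.84 (SE 0.09). Of the other receptors on this list, TNFRSF10D was called lower, with a difference of -0.54 (SE 0.05). TNFRSF10A (0.12, SE 0.13), TNFRSF10C (-0.36, SE 0.14) and EDA2R (-0.38, SE 0.06) were not called. Lower calls among these targets neither covered all the receptors nor were limited to them. FUCA1 and TP53INP1 rose by 0.69 (SE 0.11) and 0.58 (SE 0.08). CDKN1A differed by 0.06 (SE 0.05, adjusted p = 0.395), so this much-used readout of p53 did not pass the test. With CTPI2, 0 of the 35 were called by edgeR, and DRAM1 alone passed the adjusted p with a difference of -0.26 (SE 0.05, adjusted p = 0.00699). At an unadjusted p under 0.05, 4 differed, a rule for which the share of all genes was not counted.

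The receptors, ligands and partners of the 9 genes gave a mixed picture. FASLG, the ligand of FAS, had at most 2 counts in any library, and GFRAL, the receptor of GDF15, had 0 counts in all 12, which allows up to 3 counts in each. TNFSF10 encodes TRAIL, the ligand of TNFRSF10B, and was near the floor, with at most 19 counts in a Sen(IR) library and at most 7 with UK5099. It was nonetheless called lower with UK5099 (log2 -2.71, SE 0.63, adjusted p = 0.00116), a size that depends on the prior count at such low levels. Downstream of the death receptors, BID, which links caspase-8 to mitochondria, fell by 0.94 with UK5099 (SE 0.06, adjusted p = 7.94e-12), from a mean of 71.4 CPM to 37.2 CPM. CASP8 differed by 0.06 (SE 0.08) and FADD, the adaptor of both receptors, by -0.2 (SE 0.09), and neither passed the test. SESN3, a second sestrin that FOXO factors regulate, rose by 1.48 with UK5099 (SE 0.13, adjusted p = 2.01e-09), from a mean of 61.2 CPM to 170 CPM, beside the 0.22 of SESN1. Of the 11 partners tested, 7 were called higher and 0 lower in Sen(IR) against Prol, 1 higher and 2 lower with UK5099, and none with CTPI2. The matching shares of all genes tested were 24.8% and 22.4%, then 8.76% and 12.1%, then 0.0185% and 0.148%, so the UK5099 counts lie near the background.

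GDF15, TNFRSF10B and SESN2 are also known targets of the ATF4 and CHOP arm of the stress response, so 11 genes of that program were examined as well. With UK5099, 7 were called lower and 1 higher, with a median of -0.83, beside 12.1% and 8.76% of all genes tested. CHAC1, a glutathione-degrading enzyme, fell by 2.07 (SE 0.1), DDIT4, an inhibitor of mTORC1, fell by 1.25 (SE 0.19) and PHGDH, which opens serine synthesis, fell by 1.22 (SE 0.11). SLC7A11, the cystine carrier, rose by 0.99 (SE 0.07). VLDLR was higher by 0.48 (SE 0.12, adjusted p = 0.00234), under the limit. At the adjusted p alone 2 of the 11 were higher and 9 lower, beside 21.9% and 23.5% of all genes. SESN2, outside the 11, differed by 0.13 (SE 0.08, adjusted p = 0.212). The part of this program in the differences of GDF15 and TNFRSF10B was not tested. The transcripts of the factors themselves, ATF4 and DDIT3 (which encodes CHOP), differed by -0.34 (SE 0.06) and -0.37 (SE 0.08), each passing the adjusted p under the limit. None of the 11 was called with CTPI2, and CHAC1 passed the adjusted p with a difference of -0.43 (adjusted p = 0.0349) under the limit. At an unadjusted p under 0.05, 2 differed, again without a count over all genes. In Sen(IR) against Prol, where GDF15 and TNFRSF10B rose, 2 of the 11 were called higher and 5 lower. DDIT4 was among the 2, and without the first Prol library its value was 0.48, under the limit. The motif TGATGNAA, which ATF4 and CHOP bind together, was found on either strand in the 300-base promoters of 0 of the 8 genes with a window, against 4.46% of all genes. TNFRSF10B was the gene without a window, and at so low a share 0 of 8 does not set these genes apart. The result says only that these letters are not in those windows.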

How the data were processed

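RNA of MRC5 fibroblasts was sequenced as paired ends. Per the methods and the submitters' processing notes, the authors used Trimmomatic 0.36 for trimming and STAR 2.5.2b for alignment to GRCh38, and counted uniquely mapped exon reads per gene with featureCounts of Subread 1.5.2. The deposited table holds raw counts, with 0 columns of other samples, and 485 rows have a blank symbol. Columns were assigned to groups by title. Whether counting used the strand, and the annotation release, are not given in the sources used here.

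In R 4.3.3, edgeR 4.0.16 (filterByExpr on the 4 groups, TMM, glmQLFit and glmQLFTest) fitted all 12 libraries by group. Benjamini-Hochberg adjustment ran over 16251 genes, and calls needed an adjusted p below 0.05 and a log2 fold change beyond 0.5 in size. The SE is the absolute log2 fold change divided by the root of F, and intervals are 95%. RPKM used MANE Select lengths (GENCODE v44, GRCh38). In simulated counts of 15795 genes for Sen(IR) against Prol, edgeR recovered 195 of 200 changed genes with 3 false calls. In the data 7677 genes were called in this comparison, and recovery at that number was not tested. Within groups, counts of 2 libraries differed beyond sampling noise (chi-square per gene 2.24 to 12.5), so none looked like the same library sequenced again. The check cannot tell separate cultures from separate library preparations of the same culture.

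The genes, lists and motifs were chosen with earlier results of these data known. Named are the 9 genes, CDKN1A, MDM4, up to 3 called genes with the largest change per list, comparison and direction, and partners at 0. CASP8, FADD, ATF4, DDIT3, SESN2, VLDLR, GLS2, FASLG, TNFRSF10A, TNFRSF10D, EDA2R, CD14 and the exon neighbours were named after their values were seen. Some genes that the rule names are not reported here. Alternatives were DESeq2 1.42.0, scaling by RLE or by upper quartile, testing without a filter, only the groups compared, a replicate block, other call limits, and leaving out each library.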

Additional observations from a re-analysis of the deposited data

How the results depend on the processing

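Over 18 alternatives of fit or samples, the 12 counts of called genes among the 9 equalled the reported count in 214 of 216 cases. The exceptions were UK5099 against CTPI2 with upper-quartile scaling and without the third UK5099 library, where 2 genes were called lower in place of 3. With the adjusted p alone, 1 of the 9 was lower in Sen(IR) against Prol, and 3 were higher and 4 lower with UK5099. Between the inhibitors, 2 were higher and 4 lower with UK5099. Against Prol, 8 were higher and 1 lower with UK5099. With a limit of 1 on the log2 fold change, 1 was lower with UK5099 and 1 lower between the inhibitors. Against Prol, 3 were higher with UK5099. The totals over all genes given below for that limit join both directions. FAS (0.82) and TP53I3 (0.88) were under that limit in Sen(IR) against Prol, as they were with CTPI2 against Prol (0.75 and 0.97). Over all genes, that limit gave 4030 calls in place of 7677 for Sen(IR) against Prol, 1511 in place of 3386 for UK5099, 11 in place of 27 for CTPI2, 1417 in place of 3236 between the inhibitors, and 4967 and 4028 in place of 8632 and 7599 for UK5099 and CTPI2 against Prol. The adjusted p alone gave 7384 for UK5099, 79 for CTPI2 and 7227 between them. For CTPI2, no filter gave 46, an unadjusted p 296 (edgeR) or 230 (DESeq2), and leaving out a library 15 to 33. Upper-quartile scaling moved the median of all genes to 0.14 for Sen(IR) against Prol, and to 0.15 and 0.12 for UK5099 and CTPI2 against Prol, so the values against Prol under it are read relative to that shift. Differences near 0 changed sign, and the cause was not tested. With CTPI2, MDM2 was -0.0006218 with DESeq2, -0.0006155 with RLE and -0.003015 with upper-quartile scaling, and leaving out a library gave -0.038 to 0.037 for MDM2, -0.00798 to 0.036 for PPM1D, -0.076 to 0.051 for FDXR and -0.068 to 0.139 for MDM4. TP53I3 between the inhibitors was 0.0066 with upper-quartile scaling and -0.046 to 0.00308 with libraries left out.

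A replicate block gave 7649, 3360, 25, 3204, 8605 and 7549 called genes in the order above and changed no call among the 9. The labels give numbers but no shared culture or day, same-numbered libraries correlated at -0.05 to 0.04, and 6 of 12 correlated best with their own number, so the numbers were not taken as pairs.

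The counts behind each value set what could be seen: FDXR, the lowest, had at most 615 counts in a library, and TNFSF10 at most 27.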

Other observations

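Across the 12 libraries, the log2 CPM of the 9 genes fell along a few shared profiles. These correlations describe libraries that share 4 groups, so they mostly carry the differences between groups. GDF15 had a Pearson r of 0.977 with FAS and 0.947 with TNFRSF10B, and 0.569 with MDM2. MDM2 had an r of 0.992 with ZMAT3, 0.985 with SESN1 and 0.973 with TP53I3. After group means were removed, GDF15 and FAS had an r of -0.244, MDM2 and ZMAT3 of 0.734, and MDM2 and SESN1 of 0.189. FAS then had an r of 0.846 with MDM2 and 0.811 with ZMAT3, so the profiles across groups did not hold within groups.

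Of the genes with a mean log2 CPM over 1, those most like 8 of the 9 over the 12 libraries were the following. SLC39A7, a zinc carrier of the endoplasmic reticulum, had an r of 0.993 with GDF15. SOD2, the mitochondrial superoxide dismutase, had an r of 0.997 with FAS, and FGF7, a fibroblast growth factor, of 0.994. SCUBE3 and TGFBR2, a receptor of TGF-β, had an r of 0.998 and 0.997 with TNFRSF10B. NAALADL2 and HDAC11 had an r of 0.999 and 0.998 with MDM2, and ARRDC4, an arrestin-domain protein, of 0.996 with ZMAT3. NXN had an r of 0.993 with SESN1 and PNPLA6 of 0.992 with FDXR. PPM1D had the weakest nearest neighbour, SOX9 at 0.937.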
